A study of Mus musculus with 18 samples.

Results

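The collagen chain genes encode the alpha chains of the collagens, the proteins that assemble into the fibrils, sheets and anchoring threads of the extracellular matrix. They were taken as every gene in the count data whose symbol has the form Col, a number, a and a number (Col1a1 to Col28a1). Of 43 such genes Col17a1 was left out, which gave 42 genes of 34591. Levels are given as CPM, read counts scaled to a common library size with TMM factors. A mean of at least 1 CPM in any group was reached by 19 of the genes, and the other 23 stayed under it. On the 2 sides of that limit stood Col1a2, at 1.22 CPM in its highest group, and Col5a3, at 0.98 CPM.

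Poly(A) RNA was sequenced from 4T1, a cell line from a mammary tumour of a BALB/c mouse, in 18 libraries, 3 in each of 6 groups. Parental cells were kept for 24 h in fresh RPMI medium with foetal calf serum, penicillin and streptomycin, either untreated or with 2 ng/mL recombinant human TGFb1. Lines made by lentiviral transduction and puromycin selection carried an empty vector (EV) or a Wisp1 vector, and each was grown below confluence in the same medium on tissue culture plastic or on dishes coated with collagen type I. The labels do not say whether these lines are clones, or whether replicates are separate cultures, so p-values measure the spread between these libraries, which may be technical.

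Collagen chains combine in groups of 3 into a triple helix, and the chain classes differ in what the helices build. Fibrillar chains (types I, II, III, V, XI, XXIV and XXVII) form the fibrils of connective tissue, and the fibril-associated chains (FACIT, such as XII, XIV and XVI) sit on their surface. Type IV chains form the sheet of basement membranes, type VII forms the threads that anchor epithelium to the tissue below, and types XV and XVIII are carried by basement membranes with sugar chains attached. TGFb1 is a cytokine known for driving matrix production, Wisp1 (Ccn4) is a secreted matricellular protein, and type I collagen is the main fibrillar collagen of mammary stroma.

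Gene counts per library ran from 37552858 to 94401699, so that 3 counts were worth 0.0328 to 0.0817 CPM. Wisp1 stood at 892 to 1065 CPM in the Wisp1 line on plastic and at 1058 to 1127 CPM on collagen, against 36.5 to 71.4 and 14.3 to 16.4 CPM in EV. All 8 epithelial marker genes exceeded 1 CPM, and their summed level was 2075 to 4774 CPM over the 18 libraries. Of 10 fibroblast markers 4 exceeded 1 CPM in any group (Pdgfra, Postn, Fbln1 and Pdgfrb), Thy1 and Twist2 had no count, and Lum, Dcn and Mfap5 stayed at or under 0.06 CPM on average. None of 6 endothelial and 2 of 7 leukocyte markers (Cd68 and Csf1r) exceeded 1 CPM.

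By group means, the class with the highest summed level was the basement membrane network in every group but TGFb1, where Col7a1 exceeded it. In TGFb1 replicate 1 the order was reversed, with 1224 CPM for the basement membrane network and 1114 CPM for Col7a1. The fibrillar class came to 43.0 to 223 CPM in the group means. All 42 genes together came to 2607 ± 205 CPM in untreated parental cells and 3776 ± 257 CPM with TGFb1 (SD, n = 3 in each group). In the stable lines on plastic the sum was 1553 ± 67.8 CPM in EV and 1560 ± 73.0 CPM in Wisp1, and on collagen 1893 ± 26.3 and 1955 ± 223 CPM. The 5 genes with the highest mean over all 18 libraries, Col4a1, Col18a1, Col8a1, Col7a1 and Col4a2, made up 85.8 to 87.6% of this sum in the group means. On collagen Col7a1 was not among the 5 highest and lay below Col16a1 (52.9 against 97.9 CPM in EV and 59.2 against 104 CPM in Wisp1).

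By class, all genes of the anchoring fibril (Col7a1, 1 of 1) and multiplexin classes (Col15a1 and Col18a1, 2 of 2) reached 1 CPM in some group. So did 4 of 6 basement membrane chains (Col4a1, Col4a2, Col4a5 and Col4a6), 2 of 3 short-chain network genes (Col8a1 and Col8a2) and 2 of 6 beaded filament genes (Col6a1 and Col6a2). Of the fibrillar genes 5 of 11 did (Col1a1, Col1a2, Col5a1, Col11a2 and Col27a1), and of the others 3 of 9 fibril-associated genes (Col12a1, Col16a1 and Col20a1). None of the 3 transmembrane collagens (Col13a1, Col23a1 and Col25a1) and not Col28a1 reached it. Of the 23 genes under the limit, 9 had no more than 3 counts in any library, so that at this depth their levels could not be told from 0, and none was without a count in all 18 libraries. The number at or above 1 CPM was 19 with TGFb1, 15 in untreated cells, 13 in EV on collagen and 11 in each of the other 3 groups.

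**Figure D1:**
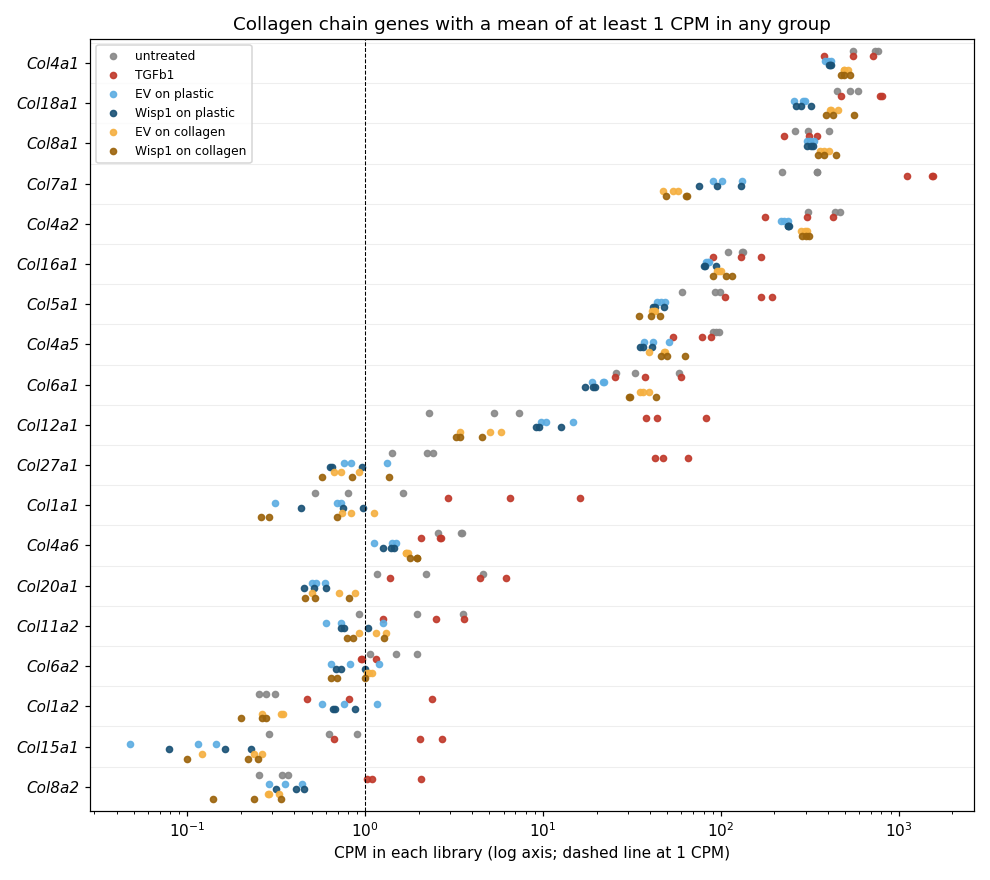
CPM of the 19 collagen chain genes that reached a mean of 1 CPM in any group, 1 point per library (3 per group), on a log axis, ordered by the mean over all 18 libraries. Col4a1, at the top, lay at 381 to 766 CPM in every library, while Col27a1 spans 0.574 to 65.0 CPM with only the TGFb1 points above 3 CPM.

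Divided by the length of the gene's exons, levels can be compared roughly between genes. This length joins all annotated exons of a gene and may exceed that of the transcripts present. In untreated cells Col4a1 led with 91.7 ± 15.3 CPM per kilobase, followed by Col18a1 (74.8 ± 10.1), Col4a2 (61.3 ± 12.9), Col8a1 (41.5 ± 9.33) and Col7a1 (29.7 ± 7.08), and each of these overlapped its neighbour in that order over the 3 libraries. Col16a1 came next at 18.5 ± 1.92 CPM per kilobase, below all the libraries of Col7a1. With TGFb1 the first place went to Col7a1, at 137 ± 24.6 CPM per kilobase, whose range overlapped that of Col18a1 at 97.8 ± 26.5. On plastic Col4a1 led both stable lines (53.8 ± 1.78 CPM per kilobase in EV and 55.0 ± 0.559 in Wisp1) and did not overlap the next gene, and Col7a1 had the 6th place in both.

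Partner chains of a helix had unequal levels, given here as ratios of counts per kilobase. The ratios depend on the exon lengths, which are not from the annotation used in counting. Col4a1 and Col4a2, the 2 chains of the common type IV helix, had ratios of 1.48 to 1.67 in the 6 group means. In untreated libraries the ratio was 1.44, 1.49 and 1.59 and with TGFb1 1.48, 1.61 and 1.91, higher in each numbered pair. These genes lie head to head on opposite strands, and in RefSeq (GRCm38.p6) their annotated starts overlap by 22 bases on chromosome 8, shown here because these are the most abundant pair of partner chains.

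Col4a1 and Col4a2 shared start, chr8:11312805-11312826, plus strand: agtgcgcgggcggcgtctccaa

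Col4a5 and Col4a6, a second head-to-head pair on the X chromosome, had ratios of 31.2 to 38.5, with Col4a5 the higher, and their starts lie 1343 bases apart. Col6a1 exceeded Col6a2, its partner in type VI collagen, 44.9 to 86.0 times, or 23.64 to 45.25 times in counts not divided by length. Col6a3, the remaining chain of the classical type VI helix, did not pass 0.09 CPM in any group mean. Col8a1 exceeded Col8a2 by 141 times with TGFb1 and by 474 to 1035 times elsewhere. Col5a1 stood at 40.2 to 157 CPM in the group means, and Col5a2, its usual partner in type V collagen, at no more than 0.14 CPM. Type I collagen is built from Col1a1 and Col1a2, and the mean ratio of these chains was 6.99 in untreated cells, 13.2 with TGFb1, 1.31 in EV and 1.88 in Wisp1 on plastic, and 5.62 and 3.09 on collagen, all at low levels. In counts not divided by length the ratio on plastic was 0.693 in EV and 0.993 in Wisp1. Which chain was higher on plastic thus depends on the length.

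**Figure D2:**
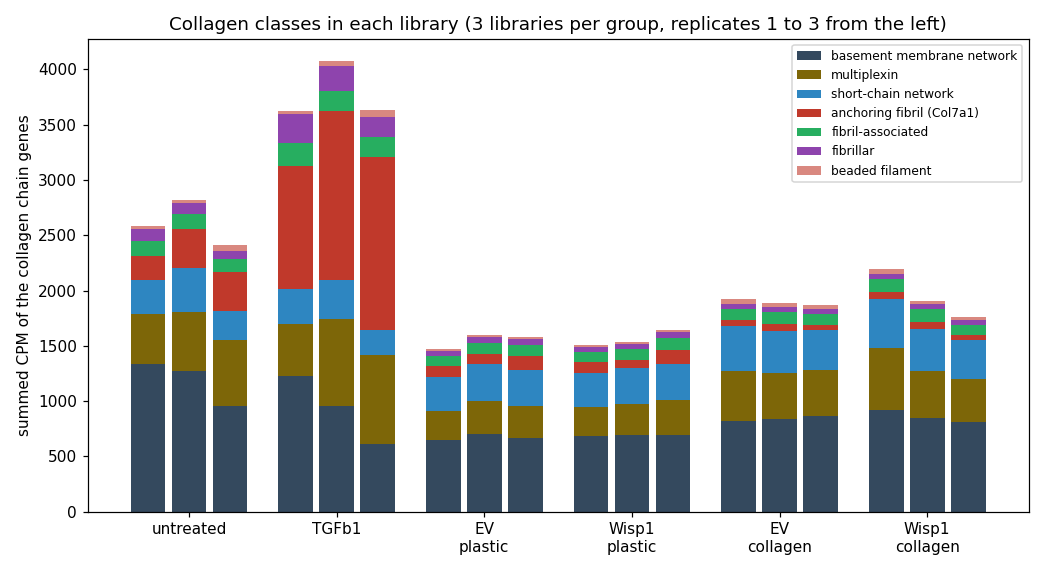
Summed CPM of the collagen chain genes in each of the 18 libraries, as bars starting at 0 and stacked by class; transmembrane collagens and Col28a1, too low to be visible, are left out. The red block, Col7a1, is 221 to 348 CPM in untreated libraries and 1114 to 1567 CPM with TGFb1, and the basement membrane block at the base of the bar falls within 613 to 1331 CPM in the parental libraries.

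The first comparison asked what TGFb1 did to these genes in parental cells. The fibrillar genes Col27a1, Col5a3 and Col1a1 (3 of 9 tested in that class) and the fibril-associated gene Col12a1 (1 of 5) rose from low levels. Col7a1 and Col8a2 rose too, and Col7a1 came to have the highest mean of all collagen genes. Of 42 genes 25 had enough counts to be tested and 6 rose, which is 24% against 11.1% of all 14874 genes tested (6.14% higher). None fell (background 4.92%). The median log2 change of the 25 was 0.40, against -0.01 for all genes tested, and 17 genes were too low to be tested. A gene such as Col5a3, which passed the count filter through the treated libraries alone, had to differ, so these counts describe the tested genes only. Of the 25, 9 had all TGFb1 libraries above all untreated libraries (background 15.1%) and 1 had them below (background 15.4%).

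Parental libraries with the same number vary together, and with that number as a block the count of changed collagen genes was 15 of 25, with 11 higher and 4 lower. The background in that fit was 44.9% of all genes (22.4% higher and 22.5% lower). Every adjusted p below is from edgeR's quasi-likelihood test with Benjamini-Hochberg adjustment over all genes tested, and the 6 genes above passed in both fits. Genes that passed only with the block are said to be so.

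Col27a1, a fibrillar chain best known from cartilage, changed most. It stood at 2.22, 1.42 and 2.41 CPM in the 3 untreated libraries and at 42.9, 47.4 and 65.0 CPM with TGFb1, groups that lie far apart. The rise was 25.9-fold (log2 4.70 ± 0.291 SE, adjusted p = 0.00137).

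Col5a3, a fibrillar chain of type V collagen, went from 6, 4 and 2 counts in the untreated libraries to 53, 135 and 54 counts with TGFb1. Its highest group mean was 0.98 CPM, so it remained a rare transcript. The rise was 19.5-fold (log2 4.28 ± 0.579 SE, adjusted p = 0.00811), and without untreated replicate 2 the adjusted p was 0.0564. Col5a1, the main type V chain, stood at 98.4, 92.5 and 60.3 CPM untreated and at 195, 169 and 106 CPM with TGFb1. The groups did not overlap and each numbered pair rose, but Col5a1 passed only with the block (log2 0.90 ± 0.0506 SE, adjusted p = 3.77e-05, against 0.0819 without it).

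Col1a1, the main chain of type I collagen, stood at 1.63, 0.8 and 0.524 CPM untreated and at 16.1, 6.53 and 2.94 CPM with TGFb1. The order of the 3 libraries was the same in both groups, and the lowest treated library lay above the highest untreated one. The rise was 8.61-fold (log2 3.11 ± 0.718 SE, adjusted p = 0.0403). It passed in 1 of the 6 fits that left out a library: the adjusted p was 0.0546, 0.165 and 0.102 without untreated replicates 1, 2 and 3, 0.0644 and 0.105 without TGFb1 replicates 1 and 2, and 0.0292 without TGFb1 replicate 3. Col1a2, the second type I chain, went from 0.252, 0.275 and 0.310 CPM to 2.38, 0.815 and 0.473 CPM. All treated libraries were again above the untreated ones, and the call depended on the block (log2 1.92 ± 0.471 SE, adjusted p = 0.0177, against 0.0792 without it, and 0.0953 when the second pair was left out).

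Among fibril-associated chains, Col12a1, which coats type I fibrils in tissues under tension, went from 5.34, 2.28 and 7.37 CPM to 37.9, 43.9 and 82.2 CPM. The lowest treated library lay far above the highest untreated one, and the rise was 11.1-fold (log2 3.47 ± 0.515 SE, adjusted p = 0.0104). It passed in 6 of 6 fits that left out a library, and with the block its adjusted p was 0.14 when the third pair was left out. Col14a1, another chain on fibril surfaces, had 11, 22 and 53 counts untreated and 3, 9 and 11 with TGFb1. It was lower in each pair and was called only with the block (log2 -1.78 ± 0.332 SE, adjusted p = 0.00483, against 0.182). Col14a1 passed the count filter only with the untreated libraries, where it was higher, so its fall describes a gene selected by that group. Col20a1 was higher in each pair, from 1.16, 2.19 and 4.59 to 1.37, 4.40 and 6.20 CPM, with an adjusted p of 0.0286 with the block, 0.658 without it, and 0.245 with the block when the second pair was left out.

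Col7a1, the chain of the anchoring fibrils, had the largest gain in CPM. It stood at 221, 346 and 348 CPM untreated and at 1114, 1536 and 1567 CPM with TGFb1, with a wide gap between the groups. The rise was 4.66-fold (log2 2.22 ± 0.229 SE, adjusted p = 0.00378), and the share of Col7a1 in the summed collagen CPM went from 11.7% to 37.2%. Col8a2, a network chain known from the cornea and vessel walls, went from 0.252, 0.341 and 0.370 CPM to 1.02, 1.09 and 2.05 CPM, a 4.36-fold rise (log2 2.12 ± 0.397 SE, adjusted p = 0.0206) at a low level. Its adjusted p was 0.0624, 0.0979 and 0.0535 without untreated replicates 1, 2 and 3 and 0.0605 without TGFb1 replicate 2. Its abundant partner Col8a1 was not called in either fit (307, 406 and 263 CPM against 314, 349 and 225 CPM, adjusted p = 0.79).

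The promoter windows of 3 genes that rose and differ in class or level are shown, since these genes moved together. Each holds the 250 bases before the annotated start in RefSeq (GRCm38.p6), 5′ to 3′ on the gene's strand, and capitals mark CAGAC or its reverse complement GTCTG, the core of the DNA element bound by SMAD proteins, which carry the TGF-beta signal.

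Col7a1, chr9:108953336-108953585, plus strand: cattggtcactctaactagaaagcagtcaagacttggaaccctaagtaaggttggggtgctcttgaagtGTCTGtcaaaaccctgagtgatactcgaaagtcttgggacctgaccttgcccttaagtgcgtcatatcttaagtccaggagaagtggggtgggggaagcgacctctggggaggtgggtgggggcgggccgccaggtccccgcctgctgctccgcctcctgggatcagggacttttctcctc

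Col27a1, chr4:63215162-63215411, plus strand: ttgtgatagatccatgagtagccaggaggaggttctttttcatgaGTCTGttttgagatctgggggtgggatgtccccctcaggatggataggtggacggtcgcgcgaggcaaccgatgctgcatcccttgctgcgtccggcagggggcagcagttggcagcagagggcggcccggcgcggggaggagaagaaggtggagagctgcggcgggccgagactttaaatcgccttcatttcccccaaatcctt

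Col5a3, chr9:20815068-20815317, minus strand: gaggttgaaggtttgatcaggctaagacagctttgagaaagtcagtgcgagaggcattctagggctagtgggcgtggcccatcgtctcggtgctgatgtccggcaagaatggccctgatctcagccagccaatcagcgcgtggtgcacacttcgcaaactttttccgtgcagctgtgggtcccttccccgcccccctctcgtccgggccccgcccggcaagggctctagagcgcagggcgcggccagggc

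Col7a1 and Col27a1 each hold 1 match and Col5a3 holds none. Of 32851 windows of the same length in the table, 42.2% hold at least 1 match on either strand, so a match is common. TGANTCA, the element of AP-1, was searched on both strands too and is in none of the 3 windows and in 6.75% of all. CCAAT, on either strand, is in the windows of Col7a1 and Col5a3, in none for Col27a1 and in 33.8% of all. A window was found for 34 of the 42 genes. Of the 6 genes that rose, Col8a2 also has a window, not shown, which holds no CAGAC match. Col12a1 and Col1a1 have no window.

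The basement membrane chains did not rise as the called fibrillar genes did. Other fibrillar genes tested, Col11a2, Col2a1, Col3a1 and Col5a2, were called in neither fit. Col4a1 stood at 766, 733 and 554 CPM untreated and at 715, 557 and 381 CPM with TGFb1, and Col4a2 at 471, 437 and 309 against 429, 306 and 177 CPM. Both were lower in each numbered pair while the groups overlapped, so neither passed without the block (adjusted p = 0.499 and 0.502). With the block they fell 1.26-fold (Col4a1, adjusted p = 0.0112) and 1.39-fold (Col4a2, adjusted p = 0.0157, and 0.0968 without the second pair), and their joint share of the summed collagen CPM went from 41.7% to 22.7%. Col4a5 stood at 90.4, 97.9 and 93.5 CPM against 78.2, 88.4 and 53.8 CPM, without overlap, and was at the limit (adjusted p = 0.0498 with the block, 0.0972 with it and without the first pair, 0.291 without the block).

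Both multiplexins were higher in each pair and were called only with the block. Col15a1 went from 0.623, 0.905 and 0.286 CPM to 2.05, 2.70 and 0.668 CPM (log2 1.55 ± 0.179 SE, adjusted p = 0.000622, against 0.17). Col18a1, the source of the fragment endostatin, went from 452, 531 and 593 CPM to 472, 785 and 804 CPM (log2 0.37 ± 0.103 SE, adjusted p = 0.0293, against 0.338). Without pair 2 or pair 3 its adjusted p with the block was 0.151 and 0.176. Col6a1 (25.8, 33.0 and 58.1 against 25.5, 37.6 and 59.5 CPM) and Col16a1 (132, 132 and 110 against 168, 130 and 90.3 CPM) were not called in either fit. Col6a1 varied more between libraries of a group than between the groups.

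**Figure D3:**
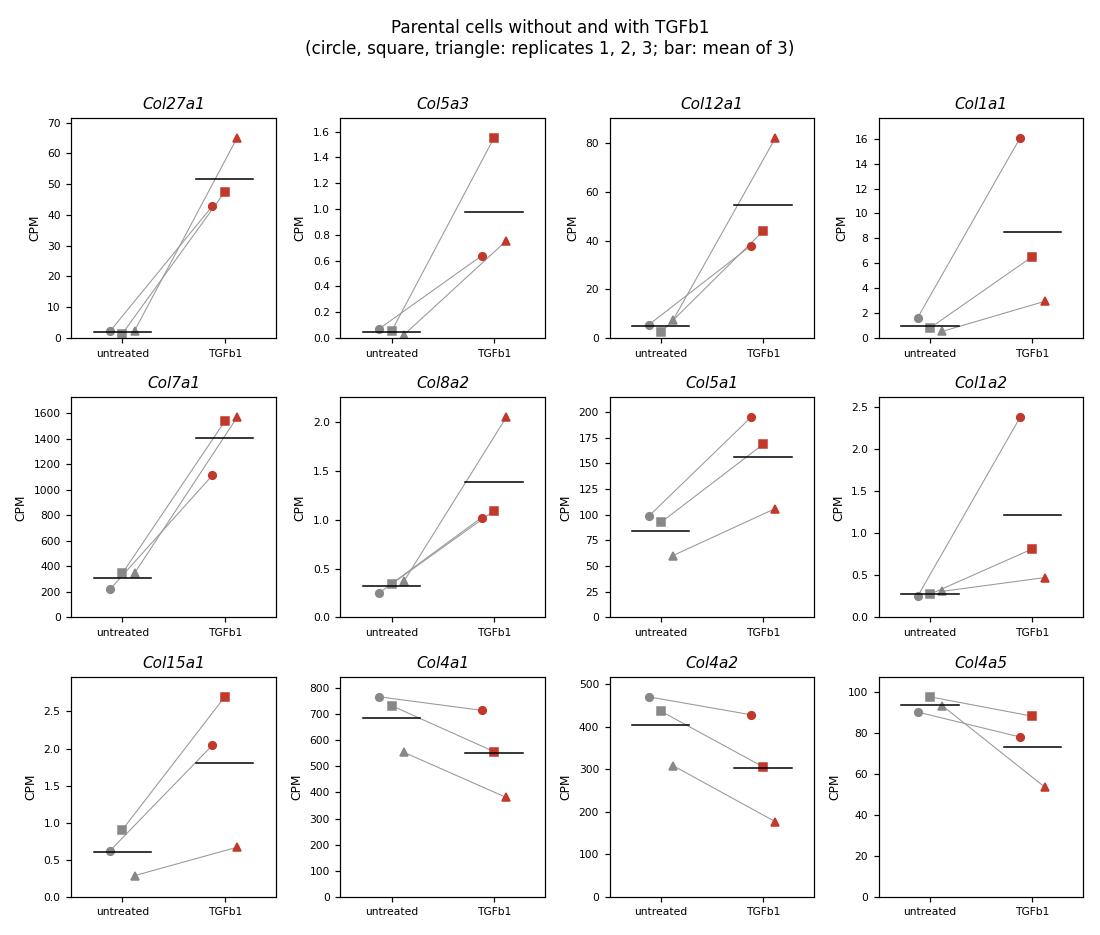
CPM per library of 12 collagen chain genes in parental cells, untreated (grey) and with TGFb1 (red), each axis starting at 0; grey lines join libraries with the same number and bars are means of 3. In the upper 8 panels all 3 TGFb1 points lie above all untreated points, and for Col4a1 and Col4a2 each line slopes down while the groups overlap.

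Some fibroblast markers moved with these genes. The summed level of the 10 fibroblast markers was 51.9 to 70.4 CPM in untreated libraries and 103 to 129 CPM with TGFb1. Most of that rise was in Postn (9.02 to 64.1 CPM, adjusted p = 0.00686). Pdgfrb rose at a low level (0.209 to 1.67 CPM, adjusted p = 0.0262), while Pdgfra did not pass (48.0 and 51.4 CPM, adjusted p = 0.866). Fbln1 went the other way (3.11 to 1.08 CPM, log2 -1.53, adjusted p = 0.3, and 0.00196 with the block). Of the other markers on the list, Thy1 and Twist2 had no count, and Lum, Dcn and Mfap5 were at or under 0.06 CPM in both groups. Fap stood at 0.161 CPM untreated and 0.241 CPM with TGFb1. In bulk RNA a change in the number of cells of a type and a change in RNA per cell cannot be told apart. The part of other cells in the result was not tested.

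Of 34 genes in the data that modify and process collagen chains 28 were tested, and 8 rose and none fell, which is 28.6% against 11.1% of all genes. Plod1 and Plod2, which hydroxylate lysine, rose 2.43-fold (adjusted p = 0.00613) and 2.32-fold (adjusted p = 0.00886). P4ha3, a prolyl 4-hydroxylase subunit, rose 6.81-fold (adjusted p = 0.0119) and Lepre1, a prolyl 3-hydroxylase, 1.70-fold (adjusted p = 0.0152). Bmp1, which cleaves the ends of procollagens, rose 1.39-fold (adjusted p = 0.018) and Pcolce2, an enhancer of that cleavage, 1.55-fold (adjusted p = 0.0281). With the block 15 were higher and 6 lower, which is 75% against 44.9% of all genes (22.4% higher and 22.5% lower).

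Of the 10 collagen receptor genes 7 were tested, with 3 higher and 1 lower (background 11.1% of all genes, 6.14% higher and 4.92% lower). The integrin chains Itga2 and Itgb1, which together bind collagen, rose 3.07-fold (adjusted p = 0.00794) and 1.27-fold (adjusted p = 0.0397), and the receptor kinase Ddr1 2.24-fold (adjusted p = 0.016). Itga1, the chain of another collagen-binding integrin, fell 2.67-fold (adjusted p = 0.0234).

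The second comparison set cells on collagen type I against cells on plastic, in each stable line. In the library titles each of these groups has a code of its own, so the surface cannot be told apart from what the codes mark. On collagen the basement membrane chains Col4a1 and Col4a2, Col18a1 and Col6a1 were higher, and Col12a1, Col1a2 and Col7a1 were lower. In EV 10 of 22 tested genes were called, 6 higher and 4 lower, which is 45.5% against 36.5% of all 13953 genes tested (19.2% higher and 17.3% lower). In the Wisp1 line 11 of 22 were called, 8 higher and 3 lower, which is 50% against 40.4% (21.3% higher and 19.1% lower), so that these shares were near those of all genes. The median log2 change was 0.24 in EV and 0.23 in Wisp1, against 0.00 and 0.01 for all genes. The 2 lines share no library in this comparison, but they share the fit and its estimate of the spread. In it 9 genes were called in both lines, all in the same direction, and the share of all genes so called was not counted. All collagen libraries lay above all plastic ones for 8 genes in EV (background 23.3%) and 7 in Wisp1 (24.9%), and below for 6 (23.3%) and 4 (26.2%).

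The rises were at most 1.88-fold. Col4a1 stood at 388, 414 and 402 CPM in EV on plastic and at 490, 491 and 520 CPM on collagen, and in the Wisp1 line at 407, 410 and 415 against 536, 494 and 475 CPM. All collagen libraries lay above all plastic ones in both lines. The rise was 1.25-fold in EV (log2 0.32 ± 0.0404 SE, adjusted p = 4.3e-05) and 1.23-fold in Wisp1 (log2 0.30 ± 0.0405 SE, adjusted p = 7.83e-05).

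Col4a2 went from 218, 238 and 227 to 281, 299 and 307 CPM in EV and from 241, 238 and 239 to 314, 301 and 286 CPM in Wisp1. Its rises of 1.30-fold (adjusted p = 1.2e-05) and 1.26-fold (adjusted p = 3.45e-05) had the direction of those of its partner. Col4a5 and Col4a6, chains of the basement membranes of kidney, skin and smooth muscle, passed in the Wisp1 line alone. Col4a5 went from 35.1, 40.8 and 36.7 to 63.2, 49.9 and 46.1 CPM there (1.42-fold, adjusted p = 0.0107), and from 41.6, 51.1 and 37.1 to 48.3, 47.8 and 39.4 CPM in EV, where the groups overlapped (adjusted p = 0.747). Col4a6 went from 1.26, 1.44 and 1.40 to 1.96, 1.94 and 1.80 CPM in Wisp1 (1.40-fold, adjusted p = 0.0115), and from 1.12, 1.498 and 1.42 to 1.71, 1.73 and 1.70 CPM in EV (adjusted p = 0.0546). A difference between the lines was not shown for either by the interaction test (adjusted p = 0.973 for both).

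Col6a1, a chain of the microfibrils around cells, had the largest rise. In EV it went from 18.9, 21.7 and 21.9 to 39.5, 36.6 and 35.1 CPM (1.78-fold, log2 0.83 ± 0.113 SE, adjusted p = 0.000118). In Wisp1 it went from 17.2, 19.2 and 19.6 to 43.4, 30.5 and 30.9 CPM (1.88-fold, log2 0.91 ± 0.115 SE, adjusted p = 6.23e-05). The lowest collagen library of each line lay well above its highest plastic library.

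Col18a1 went from 259, 299 and 289 to 455, 416 and 413 CPM in EV (1.52-fold, adjusted p = 0.00135) and from 264, 281 and 320 to 564, 429 and 388 CPM in Wisp1 (1.60-fold, adjusted p = 0.000583). Col8a1, a chain of short-chain networks, went from 306, 333 and 319 to 404, 382 and 361 CPM in EV (1.20-fold, adjusted p = 0.00731) and from 307, 328 and 321 to 443, 379 and 351 CPM in Wisp1 (1.23-fold, adjusted p = 0.00306). Neither gene had overlapping groups in either line. Col16a1, a fibril-associated chain, went from 82.4, 86.3 and 85.1 to 97.2, 101 and 95.7 CPM in EV (1.16-fold, adjusted p = 0.0287) and from 81.5, 80.7 and 93.6 to 116, 107 and 90.4 CPM in Wisp1 (1.23-fold, adjusted p = 0.00473), where the groups overlapped. In EV the Col16a1 call was lost without any 1 of 5 libraries: the adjusted p was 0.0615 and 0.101 without collagen replicates 1 and 2, and 0.0802, 0.0675 and 0.0588 without plastic replicates 1, 2 and 3.

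The genes that fell were Col12a1, Col1a2 and Col7a1 in both lines and Col3a1 in EV. Col12a1 went from 9.70, 10.4 and 14.8 to 3.43, 5.05 and 5.77 CPM in EV (2.42-fold lower, log2 -1.27 ± 0.206 SE, adjusted p = 0.000524). In Wisp1 it went from 9.08, 9.53 and 12.6 to 3.41, 4.54 and 3.23 CPM (2.80-fold lower, log2 -1.49 ± 0.218 SE, adjusted p = 0.000226). No collagen library of either line reached a plastic one.

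Col1a2 went from 24, 58 and 61 counts to 19, 22 and 24 in EV, or 0.573, 0.762 and 1.17 to 0.345, 0.335 and 0.262 CPM (2.69-fold lower, adjusted p = 0.000987). In Wisp1 it went from 0.658, 0.681 and 0.876 to 0.262, 0.278 and 0.200 CPM (2.98-fold lower, adjusted p = 0.000929). Its partner Col1a1 was called in neither line: 0.311, 0.697 and 0.727 CPM on plastic against 0.744, 0.836 and 1.11 CPM on collagen in EV (adjusted p = 0.193), and 0.974, 0.436 and 0.754 against 0.287, 0.694 and 0.259 CPM in Wisp1 (adjusted p = 0.113). The chains of the substrate protein itself were thus rare transcripts in these cells on both surfaces.

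Col7a1 went from 101, 90.2 and 132 to 54.1, 57.3 and 47.2 CPM in EV (2.03-fold lower, log2 -1.02 ± 0.208 SE, adjusted p = 0.00404). In Wisp1 it went from 95.2, 75.5 and 130 to 64.0, 64.6 and 49.0 CPM (1.69-fold lower, log2 -0.76 ± 0.208 SE, adjusted p = 0.0167), and the adjusted p was 0.0559 without collagen replicate 3 and 0.0504 without plastic replicate 3. All collagen libraries lay below all plastic ones. Col3a1, the chain of type III fibrils, had 31, 61 and 28 counts in EV on plastic and 23, 17 and 8 on collagen (2.94-fold lower, adjusted p = 0.0188), and in Wisp1 1, 5 and 0 against 1, 0 and 2 counts, too few to compare. In EV its adjusted p was 0.0509 and 0.0780 without collagen replicates 2 and 3 and 0.0508 and 0.0704 without plastic replicates 1 and 2. Col3a1 passed the count filter only with the EV plastic libraries, where it was highest, so its fall describes a gene selected by that group.

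When all 18 libraries shared a fit, the parental groups included, 3 of the 10 EV calls passed (Col7a1, Col12a1 and Col18a1) and 4 of the 11 Wisp1 calls (these and Col1a2). Col4a1 then had an adjusted p of 0.247 in EV and 0.271 in Wisp1, Col4a2 of 0.316 and 0.369, and Col6a1 of 0.0858 and 0.0533, with changes in the same direction.

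**Figure D4:**
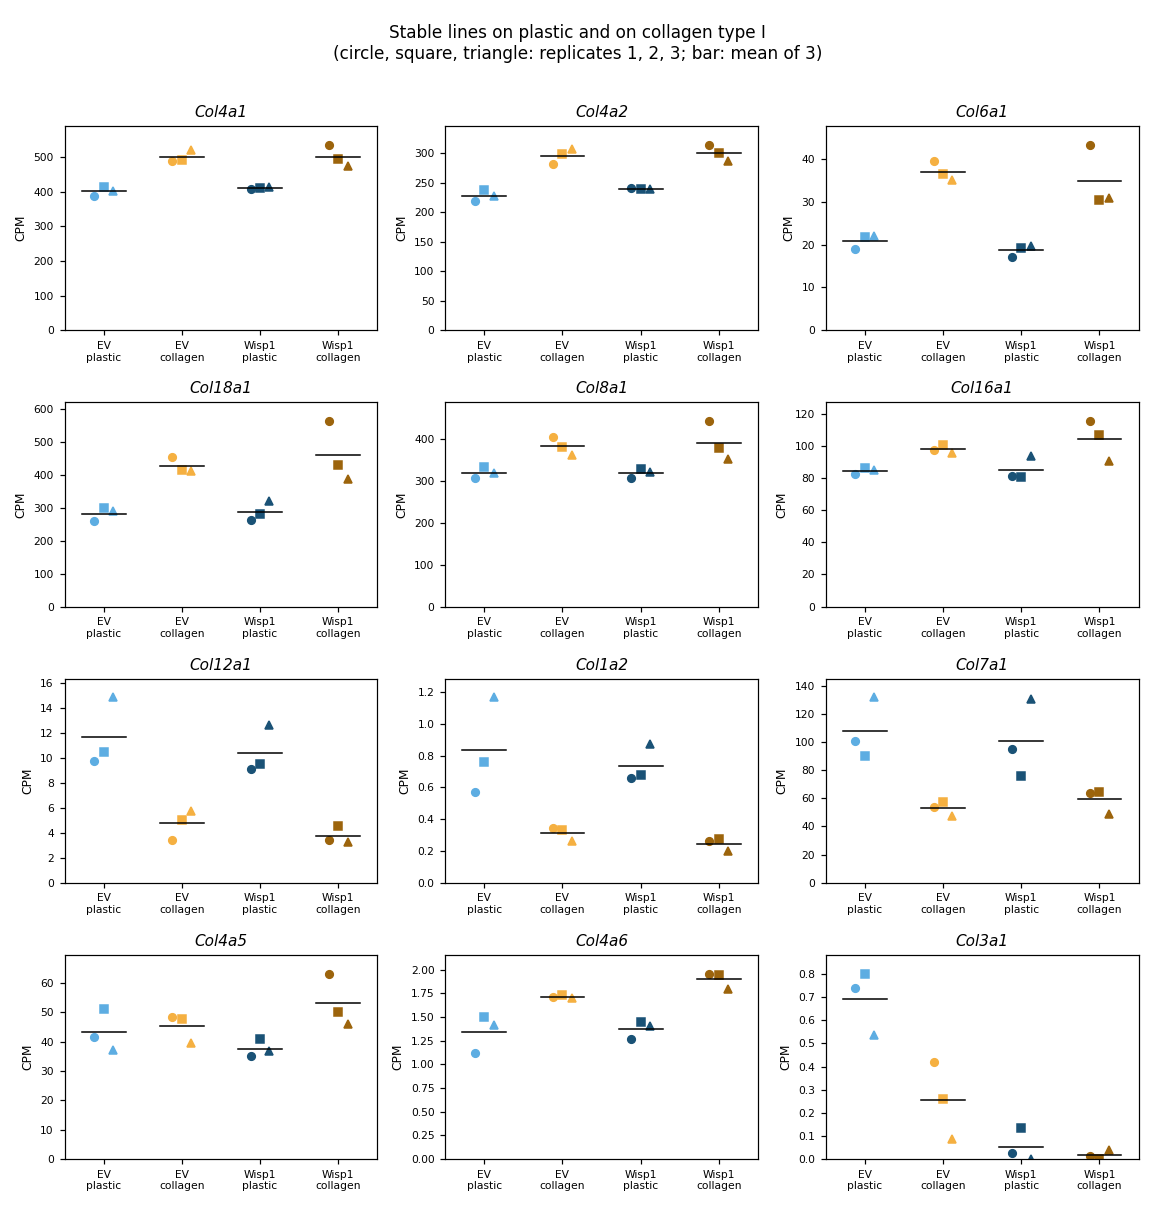
CPM per library of 12 collagen chain genes in the stable lines on plastic (blue) and on collagen type I (orange and brown), each axis starting at 0; bars are means of 3. In the first 5 panels every collagen point lies above every plastic point of its line, and for Col12a1, Col1a2 and Col7a1 every collagen point lies below.

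The summed level of the fibroblast markers was 29.1 to 49.4 CPM in EV on plastic and 32.1 to 36.9 CPM on collagen, and 24.1 to 34.1 and 31.0 to 39.1 CPM in Wisp1. Pdgfra was higher on collagen in both lines (adjusted p = 0.00343 and 0.000306), and Postn did not pass in either (adjusted p = 0.0879 and 0.25). Fbln1 was higher in Wisp1 (log2 1.28, adjusted p = 0.00381) and did not pass in EV (log2 0.15, adjusted p = 0.735). Their part in the result was not tested.

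Of the genes for making collagen, 27 were tested; 10 were higher and 6 lower on collagen in EV, and 8 higher and 3 lower in Wisp1. That is 59.3% called in EV against 36.5% of all genes, and 40.7% in Wisp1 against 40.4%, so that the Wisp1 share was that of all genes. Adamts14, which removes the amino end of procollagens, rose 1.76-fold in EV (adjusted p = 3.37e-06) and 1.66-fold in Wisp1 (adjusted p = 9.73e-06). Bmp1 rose 1.32-fold and 1.38-fold (adjusted p = 0.00131 and 0.000438), and Sec24d, a coat protein of the vesicles that export procollagen, 1.26-fold and 1.17-fold (adjusted p = 3.61e-05 and 0.000628). The cyclophilin Ppib rose 1.25-fold and 1.19-fold (adjusted p = 0.000301 and 0.00137), and the prolyl 3-hydroxylase Leprel2 1.34-fold in both (adjusted p = 0.00255 and 0.00261). Ctage5, which takes part in collagen export, fell 1.21-fold in both lines (adjusted p = 0.000151 and 0.000118), and the collagen chaperone Serpinh1 fell 1.21-fold and 1.25-fold (adjusted p = 0.00338 and 0.00105).

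Of 7 receptor genes tested 3 were called in EV (42.9% against 36.5% of all genes) and 2 in Wisp1 (28.6% against 40.4%), shares near or under the background, and all were higher. Itga1 rose 2.90-fold in EV (adjusted p = 1.39e-05) and 3.86-fold in Wisp1 (adjusted p = 2.37e-06), and Ddr1 1.36-fold and 1.35-fold (adjusted p = 0.000146 and 0.000189). Itga2 rose 1.39-fold in EV (adjusted p = 0.0046) and did not pass in Wisp1 (adjusted p = 0.0731).

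Some genes were called in opposite directions by TGFb1 and by the collagen surface, comparisons that share no library. With the block for TGFb1, 3 genes were higher with TGFb1 and lower on collagen in both lines, Col7a1, Col12a1 and Col1a2. Another 2, Col4a1 and Col4a2, were lower with TGFb1 and higher on collagen in both lines. In the fit without the block only Col7a1 and Col12a1 of these 5 passed for TGFb1. How many of all genes had such opposite calls was not counted. Of all genes tested, 44.9% were called for TGFb1 with the block, 36.5% on collagen in EV and 40.4% in Wisp1. Such separate shares do not give the share of opposite calls, so whether these counts are particular to collagen genes was not tested. Col18a1 was called higher on collagen in both lines without a block, and higher with TGFb1 only with the block. That TGFb1 call held in 1 of 3 blocked fits that left out a pair. Col27a1, the gene that changed most with TGFb1, stood at 0.971 and 0.774 CPM on plastic and collagen in EV (adjusted p = 0.419).

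**Figure D5:**
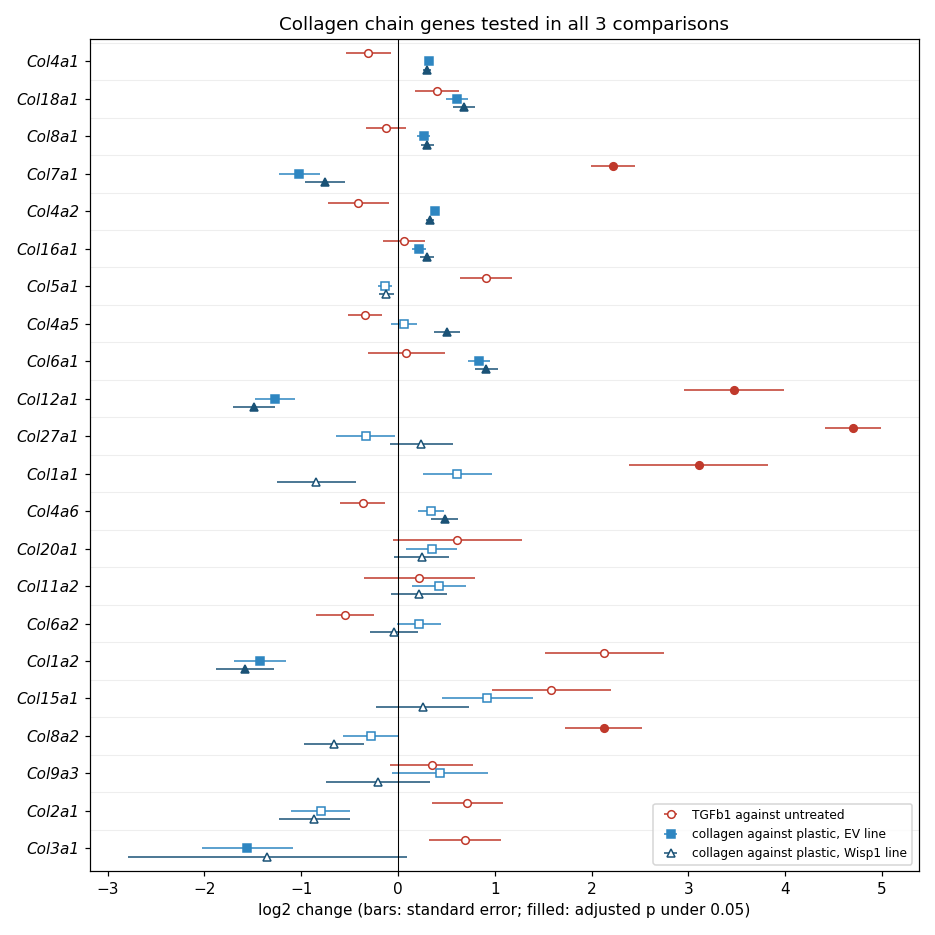
Log2 change with its standard error for the 22 collagen chain genes tested in all 3 comparisons, ordered by mean CPM, for TGFb1 (red, without the block) and for collagen against plastic in EV (light blue) and Wisp1 (dark blue); filled points have an adjusted p under 0.05. Col7a1 and Col12a1 lie to the right of 0 for TGFb1, at 2.22 and 3.47, and to the left on collagen in both lines.

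The third comparison asked what the Wisp1 vector did on each surface. No collagen chain gene passed on plastic or on collagen, where 0.0143% and 0.0717% of all genes did. At an unadjusted p under 0.05 there were 1 of 22 on plastic and 2 of 22 on collagen, against 822 and 707 of all 13953 genes tested. DESeq2 called 1 and 0 collagen genes. Deviations of EV and Wisp1 libraries with the same number correlated at 0.15 to 0.28 on plastic and 0.17 to 0.49 on collagen. Libraries with different numbers were not compared, so a pairing by number was not shown. With the number as a block within each substrate, 1 collagen gene passed on plastic (background 3.15%) and 2 on collagen (background 2.57%).

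The gene on plastic was Col3a1. It had 31, 61 and 28 counts in EV and 1, 5 and 0 in Wisp1, without overlap (log2 -3.86 ± 0.713 SE, adjusted p = 0.223, and 0.00103 with the block). On collagen it had 23, 17 and 8 counts in EV and 1, 0 and 2 in Wisp1 (adjusted p = 0.426, and 0.0109 with the block). Col3a1 passed the count filter through EV libraries alone, so its higher level in EV was the reason it was tested. Its p-values are therefore no independent support for a difference between the lines. Both lines were under 1 CPM, so this was a difference among rare transcripts, and the lines may differ in more than the vector, which was not tested.

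The other gene on collagen was Col7a1, at 54.1, 57.3 and 47.2 CPM in EV and 64.0, 64.6 and 49.0 CPM in Wisp1. Each Wisp1 library was above the EV library of its number, while the groups overlapped (log2 0.16 ± 0.0380 SE with the block, adjusted p = 0.0294, against 0.996 without it). Apart from Col3a1 the log2 changes of all tested collagen genes lay between -0.37 and 0.57 on plastic and between -1.18 (Col1a1, adjusted p = 0.701) and 0.24 on collagen.

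Whether the effect of Wisp1 differed between the surfaces was tested as an interaction, which equals the difference between the lines in their response to collagen. No collagen gene passed, nor did any other gene (0%), and DESeq2 called 0 collagen genes. An unadjusted p under 0.05 was found for 2 of 22, against 410 of all 13953 genes tested. With the block within each substrate 1 passed, Col7a1 (log2 0.27 ± 0.0529 SE, adjusted p = 0.0292, against 0.973 without it), where 0.502% of all genes passed.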

How the data were processed

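Poly(A) RNA was prepared with a column kit and a stranded mRNA kit, per the labels' protocols. The authors deposited raw read counts per gene symbol, with no normalization. Tools listed in the submitters' processing notes, with no roles, are STAR, BWA, HTSeq, CASAVA, limma and R 3.2.4, and the build is mm9. Which annotation and which strand option were used in counting is not given in the sources used, so counts of Col4a1 and Col4a2, whose exons share 22 bases on opposite strands in GENCODE M21, can include reads of the partner. Entries that name no gene (13.9 to 17.5% of counted reads) were left out.

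Genes passing filterByExpr were tested with edgeR 4.0.16 in R 4.3.3 (TMM, robust quasi-likelihood F tests, calls at an adjusted p under 0.05). The 6 parental libraries had 1 fit and the 12 stable line libraries another with 4 group means. SE was computed as the log2 change divided by the root of F. CPM values carry TMM factors from all 18 libraries, and exon lengths are from M21. The tests were checked on simulated data.

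Deviations from group means of same-numbered libraries were correlated to see whether numbers pair them, with 0.1 as the minimum for every pair. The parental groups share codes in the titles and gave 0.79, 0.55 and 0.78. EV and Wisp1 gave 0.15, 0.24 and 0.28 on plastic and 0.49, 0.17 and 0.36 on collagen. Plastic and collagen libraries did not pass (0.14, -0.12 and 0.28 in EV; -0.04, -0.08 and -0.01 in Wisp1). A block was used beside the main fit where every pair passed.

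Given by library are the collagen genes called in any comparison in the main fit or with such a block, and the 10 most abundant; from the lists for making and binding collagen, at most 6 called genes per comparison, by p, with their values in the other line. The collagen genes, the lists and the tests were chosen with earlier results of these data known. Alternatives were DESeq2 1.42.0, RLE scaling, other filters, other sets of libraries in the fit, blocks, and leaving out each library.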

Additional observations from a re-analysis of the deposited data

Results flagged for a closer look

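The change of Col7a1 on collagen type I differed between the lines in 1 of the fits. With the replicate number as a block within each substrate, the interaction of Wisp1 and substrate was 0.27 on the log2 scale (SE 0.0529, edgeR adjusted p = 0.0292), and without the block the adjusted p was 0.973. Col7a1 was lower on collagen by 1.02 on the log2 scale in EV (log2 -1.02) and by less in Wisp1 (log2 -0.76), and all 3 libraries on collagen were below all 3 on plastic in both lines.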

How the results depend on the processing

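No call turned its direction under any alternative run. For TGFb1, the 6 collagen genes called became 15 with the replicate block and 10 with all 18 libraries in one fit, 3 to 8 leaving out a library, and 17, 11 and 13 with the block leaving out pair 1, 2 and 3 (an alternative chosen after seeing the data). Over all genes 1645 calls became 6672 with the block, 2910 with DESeq2 and 4865 with all 18 libraries, 380 to 1430 leaving out a library and 6261, 4344 and 6344 with the block leaving out a pair. For collagen in EV, 10 collagen genes became 3 and 5095 genes 1629 with all 18 libraries, and 8 to 11 and 3849 to 5562 leaving out a library. In Wisp1, 11 became 4 and 5641 became 2071, and 10 to 13 and 4450 to 5692. For Wisp1 on plastic, 0 collagen genes became 1 with DESeq2 and 1 with the replicate block within each substrate. Of all genes 2 became 1 with the stricter filter, 18 with DESeq2, 440 with that block, 0 with only the 6 libraries compared, 1 with all 18 libraries, and 1 to 4 leaving out a library. For Wisp1 on collagen, 0 collagen genes became 2 with the block within each substrate, and 10 genes became 32 without a filter, 6 under the stricter one, 18 with the replicate block over the 4 groups, 40 with DESeq2, 358 with the block within each substrate, 2 with only the 6 libraries compared, 4 with all 18 libraries, and 5 to 14 leaving out a library. For the interaction, 0 collagen genes became 1 and 0 genes became 70 with the block within each substrate, 1 with DESeq2, and 0 to 1 leaving out a library. The cause of these changes was not tested, apart from fewer libraries or genes in the fit where the alternative is built so. The replicate block over the 4 groups, between substrates whose numbers did not pair, added Col2a1 in both lines and Col4a6 in EV; no block fitted to all libraries ended a collagen call. The 19 genes reaching 1 CPM were 23 at 0.5 CPM, 15 at 2 CPM, 20 with no TMM and 19 to 20 leaving out a library. Depth limits the 23 rare genes, of which 9 had at most 3 counts in any library, and floors cover counting error only.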
